A study of Mus musculus with 3 samples.

Results

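The immediate-early and AP-1 genes described here are Fos, Fosb, Fosl1, Jun, Junb, Jund, Egr1, Atf3, Ier2 and Ier3, 10 genes chosen by name out of the 24698 genes of the merged count table, and all 10 were found in it. They were followed through the in vitro differentiation of Leydig cells, the steroid-producing cells of the testis. Adult C57BL/6 males of 8 to 12 weeks gave testis cells that were sorted as Sca1+/cKit- and plated on Matrigel at 100000 cells per well. After 18 hours of recovery in serum, the cells of all 3 groups were expanded for 3 days with the growth factors PdgfAA, PdgfBB and Fgf2, each at 10 ng/ml, and with SAG, a smoothened agonist, at 0.5 uM. For differentiation LiCl2 at 5 mM and DAPT, a gamma-secretase inhibitor, at 10 uM were then added to these agents. Day 4 falls at the end of the expansion, and days 7 and 14 follow 3 and 10 days of differentiation medium.

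Each day is 1 Drop-seq library, in which every transcript captured in a droplet with a cell is tagged with a unique molecular identifier (UMI). There were 2980 cells on day 4, 2171 on day 7 and 973 on day 14, with a median of 2886.5, 3285 and 3272 UMIs per cell. The summed UMIs of each library came to 12677110, 11627440 and 5324400. A level is given in CPM, the UMIs of a gene per 1000000 UMIs of all cells of a group, with an exact Poisson 95% interval that covers counting error only. Since a day is a single library and the number of animals is not given in the sources used here, no test between days was possible, and a difference between days cannot be told apart from a difference between libraries. The interval of a ratio is an exact conditional binomial interval of the same kind. The UMIs come from the 3' ends of transcripts and were not scaled to gene length, so each gene is compared with itself across days and cells.

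Immediate-early genes are transcribed within minutes of a stimulus, with no need for new protein. Growth factors reach them through the MAP kinase cascade, which acts on the serum response factor and its Elk partners, and stress kinases reach several of them as well. AP-1 is a dimer of a Jun protein with a Fos, Jun or Atf partner, and its make-up sets which genes it drives. Fos protein is short lived and marks recent stimulation, whereas Fosl1 (Fra-1) and Fosl2 (Fra-2) accumulate in cells under sustained signalling. In Leydig cells, AP-1 members and Egr1 are known to respond to hormonal stimulation and to act on steroidogenic genes.

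Fos lies on chromosome 12 at 85473890 to 85477273 on the plus strand, Fosb on chromosome 7 at 19302696 to 19310051 on the minus strand, Jun on chromosome 4 at 95049034 to 95052222 on the minus strand and Fosl1 on chromosome 19 at 5447547 to 5455946 on the plus strand, in GRCm38 with the GENCODE M21 annotation, and all 10 members are protein-coding genes. The 100 bases before the RefSeq start are shown for Fos and Fosb, the members that were more than 2-fold higher on day 14 than on day 7, and for Jun, which was more than 2-fold lower. They are RefSeq sequences of GRCm38.p6, read 5′ to 3′ on the strand of the gene, and the RefSeq start of Fosb lies inside the GENCODE gene, so that the window shown overlaps it at the end. Capitals mark TGACG, the first letters of a cAMP response element, in Fos (chr12:85473790-85473889, plus strand) and Fosb (chr7:19310046-19310145, minus strand), and the 8-base AP-1 type match TGACATCA in Jun (chr4:95052223-95052322, minus strand).

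Fos: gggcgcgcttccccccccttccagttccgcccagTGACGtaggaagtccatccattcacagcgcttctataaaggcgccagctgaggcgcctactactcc
Fosb: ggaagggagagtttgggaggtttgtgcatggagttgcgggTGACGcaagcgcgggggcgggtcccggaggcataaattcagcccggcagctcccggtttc
Jun: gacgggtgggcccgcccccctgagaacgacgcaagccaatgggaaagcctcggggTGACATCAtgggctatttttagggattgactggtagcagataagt

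The match lay 66 to 62 bases before the start in Fos, 60 to 56 in Fosb and 45 to 38 in Jun. Over the 250 bases before the start and on both strands, TGACG was found in 4 of the 7 members with a RefSeq window (Fos, Fosb, Junb and Atf3) and in 17.8% of 32851 such windows. The pattern TGANNTCA was found in Jun and Jund and in 11.9% of all windows, and the 7-base AP-1 pattern TGANTCA in 0 of the 7 members and in 6.75% of all windows. The full element TGACGTCA, which contains TGACG and is a case of TGANNTCA, was in 0 of the 7 and in 1.55% of all windows. These are matches of letters, not mapped binding sites. Fosl1, Egr1 and Ier2 had no window.

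The summed level of the 10 genes differed little between the days, while its make-up differed more. It was 570 CPM on day 4 (95% interval 557 to 583), 498 on day 7 (485 to 511) and 482 on day 14 (463 to 501). The day 7 level was 0.874 of the day 4 level (0.845 to 0.905), and the day 14 level was 0.968 of the day 7 level (0.923 to 1.01). Beneath this sum, Fos and Fosb were higher and Fosl1 was nearly gone on day 14.

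Fos, the founding member of its family, stood at 11.9 CPM on day 4 (10.1 to 14.0), 12.3 on day 7 (10.4 to 14.5) and 83.8 on day 14 (76.2 to 91.9). Days 4 and 7 overlapped, and day 14 was 6.81-fold above day 7 (5.63 to 8.28). Fosb, a close relative that is induced with Fos, stood at 5.36 (4.17 to 6.80), 7.48 (5.99 to 9.23) and 23.1 CPM (19.2 to 27.6), and day 14 was 3.09-fold above day 7 (2.33 to 4.11). Fosl1 went the other way. Its level was 21.0 on day 4 (18.5 to 23.7), 25.6 on day 7 (22.8 to 28.7) and 0.188 on day 14 (0.00476 to 1.05), where it rested on 1 UMI in 1 of 973 cells, against 298 UMIs in 234 of 2171 cells on day 7. The ratio of day 14 to day 7 was 0.00733 (0.000185 to 0.0411).

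Among the Jun genes, the common partners of the Fos proteins, Jun stood at 88.9 CPM on day 4 (83.8 to 94.2), 126.6 on day 7 (120.2 to 133.2) and 44.9 on day 14 (39.4 to 51.0). It peaked on day 7, and day 14 was 0.355 of day 7 (0.308 to 0.407). Junb, which can restrain Jun activity, went from 58.8 (54.7 to 63.2) to 45.2 (41.4 to 49.2) and 30.4 (25.9 to 35.5), lower at each later day with intervals that did not overlap. Jund, the Jun gene that resting cells hold at a steady level, stayed between 37.9 and 50.2, with overlapping intervals on days 4 and 14.

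Egr1, a zinc-finger factor induced through the serum response factor, was at 130.8 CPM on day 4 (124.6 to 137.2), 91.6 on day 7 (86.2 to 97.3) and 143.9 on day 14 (133.9 to 154.4), so that day 7 was the low point. Ier2, a small nuclear protein of the early response, went from 130.2 (124.0 to 136.7) to 111.3 (105.3 to 117.5) and 96.7 (88.6 to 105.5). Ier3, a stress-inducible regulator of survival, was 78.9 on day 4 (74.1 to 83.9), 25.0 on day 7 (22.2 to 28.1) and 19.9 on day 14 (16.3 to 24.1). Its main step came first, a day 7 level 0.317 of that on day 4 (0.277 to 0.362). Atf3, a stress-induced factor that pairs with Jun, was sparse, with 47, 32 and 6 UMIs on the 3 days, or 3.71 (2.72 to 4.93), 2.75 (1.88 to 3.89) and 1.13 CPM (0.414 to 2.45).

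**Figure D1:**
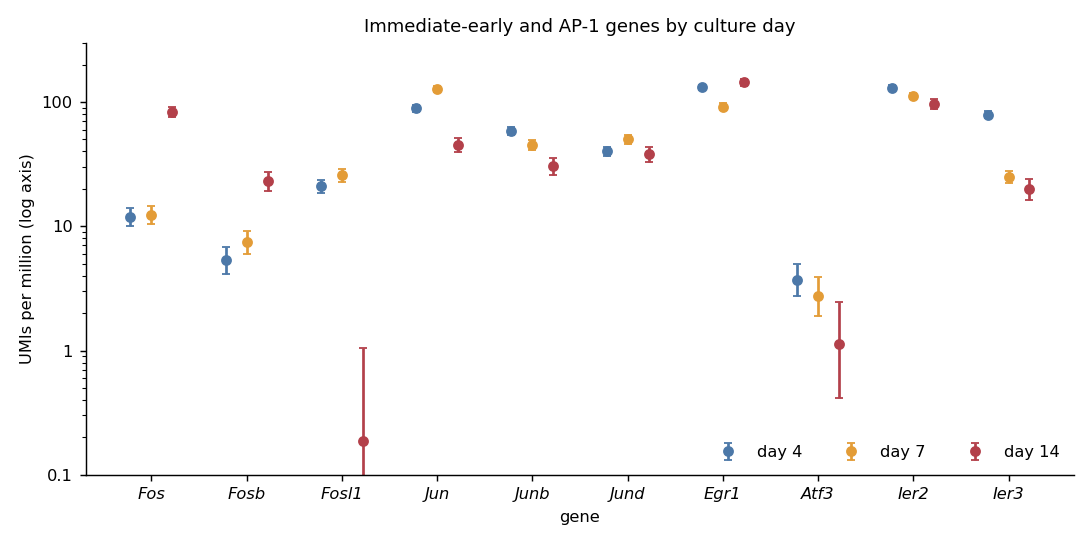
Level of each member on days 4, 7 and 14, in CPM on a log axis, with exact Poisson 95% intervals (1 library per day). Fos and Fosb are highest on day 14, at 83.8 and 23.1, and Fosl1 is down to 0.188 there, with an interval that runs below the axis.

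Among genes with at least 50 UMIs over the 2 days compared, 1 of the 10 members (Ier3, lower) was past 2-fold between days 4 and 7, where 4.63% of 11371 genes were (2.15% higher and 2.48% lower). Between days 7 and 14, 9 members held enough UMIs and 4 of them were past 2-fold, Fos and Fosb higher and Fosl1 and Jun lower, where 23.6% of 11007 genes were (9.15% higher and 14.4% lower). Atf3 did not reach the minimum there. Between days 4 and 14, which are each also part of a comparison above, 2 of the 10 members were past 2-fold higher (Fos and Fosb) and 3 lower (Fosl1, Ier3 and Atf3), where 27.9% of 10986 genes were past it (12.3% higher and 15.7% lower). The median log2 ratio of the members was -0.32 on day 14 against day 7, beside -0.16 for all genes tested. The median-of-ratios scaling factor of that comparison was -0.11 on the log2 scale.

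The Fos family, taken as Fos, Fosb, Fosl1 and the related Fosl2, held 82.4 CPM on day 4, 85.3 on day 7 and 203.6 on day 14. Fos made up 14.4% of the family's UMIs on day 4 (exact binomial 95% interval 12.4 to 16.7), 14.4% on day 7 (12.3 to 16.8) and 41.1% on day 14 (38.2 to 44.1). Fosl1 made up 25.5% (22.8 to 28.2), 30.04% (27.2 to 33.0) and 0.0923% (0.00234 to 0.513). Fosl2 had a share between 46.8% and 53.6%, and its own level went from 44.2 and 39.9 CPM on days 4 and 7 to 96.5 on day 14 (88.4 to 105.3). The Jun family went the other way, with 187.7, 222.0 and 113.3 CPM for Jun, Junb and Jund together. Jun was 57.0% of it on day 7 (55.1 to 59.0) and 39.6% on day 14 (35.7 to 43.7), while the share of Jund was 22.6% (21.0 to 24.3) and 33.5% (29.7 to 37.4).

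**Figure D2:**
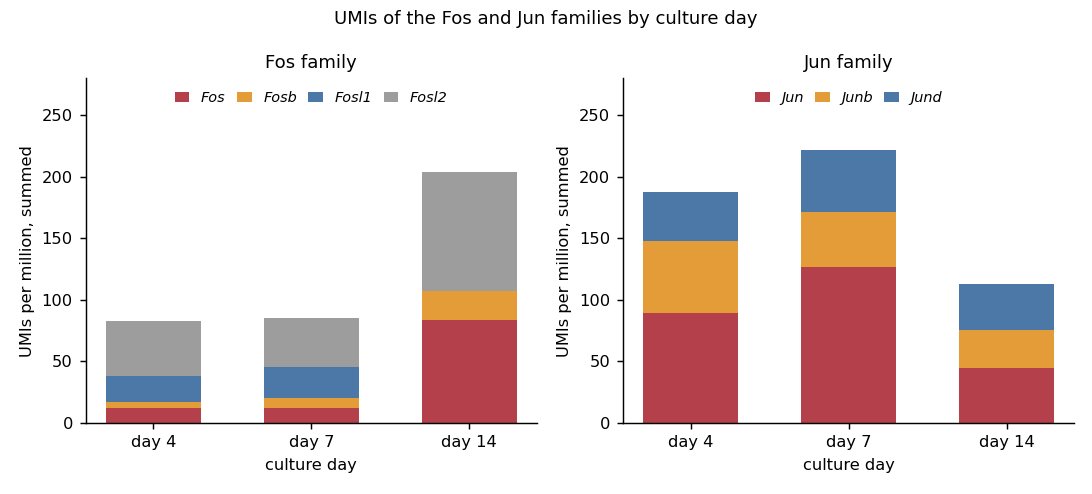
Summed CPM of the Fos family (left) and the Jun family (right) on each day, with 1 coloured segment per gene and no error bars (1 library per day). The Fos family goes from 85.3 to 203.6 between days 7 and 14 as Fosl1 vanishes, and the Jun family goes from 222.0 to 113.3.

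The share of cells with a UMI told a similar story at equal depth. Cells with at least 1500 UMIs were thinned to 1500 UMIs each, which left out 753, 429 and 179 cells. A Fos UMI was then seen in 1.57% of cells on day 4 (exact binomial 95% interval 1.10 to 2.18), 1.89% on day 7 (1.31 to 2.65) and 8.94% on day 14 (7.05 to 11.1), and without thinning in 3.83%, 4.47% and 14.5%. For Fosl1 the thinned shares were 3.01%, 3.44% and 0%, where 0 of 794 cells had a UMI and up to 0.464% could. For Ier2 they were 16.7%, 15.2% and 11.7%, and for Egr1 16.2%, 11.1% and 16.9%, so most cells showed no UMI of any single member at this depth. No class of cells here is known to lack these genes, so the share that free RNA would give could not be set, and the unthinned share of 0.103% for Fosl1 on day 14 is the lowest seen for a member.

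The UMIs of Fos were held by few cells on every day. On day 14 the 1% of cells with the most Fos UMIs held 31.2% of its 446 UMIs, and the highest cell had 19, whereas the same measure was 16.8% for the 202 UMIs of Jund and 16.7% for the 766 of Egr1. On days 4 and 7 it was 44.4% and 46.9% for Fos, over 151 and 143 UMIs, and such a share is higher where UMIs are fewer. In the thinned cells, 6.05% of those on day 14 showed 3 or more different members, compared with 4.04% on day 4 and 3.16% on day 7, although 63.9% of day 14 cells showed none, compared with 47.8% and 51.3%. Pooled over cell classes, day 14 therefore had both a larger share of cells without a member and a larger share with several. By the classes described below, 72.9% of Leydig-like and 52.7% of differentiating Leydig-like cells of day 14 showed none. The shares with 3 or more were 3.07% and 9.86%.

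To place the members in cell states, cells were clustered without any of the members or the lists of related genes, and clusters were named by marker genes. The classes are proliferating progenitor-like, differentiating myofibroblast-like, ECM myofibroblast-like, differentiating Leydig-like and Leydig-like cells. They rest on rebuilt clusters rather than on the study's own, and a class is described on a day where it held at least 50 cells. Leydig markers such as Cyp11a1 and Hsd3b1 summed to 18138 CPM in Leydig-like cells of day 14, compared with 2376 in differentiating Leydig-like cells of that day and 165.9 to 504 in the classes of days 4 and 7. Of 9 endothelial markers, 7 were at 0 in both day 14 classes, and the 10 macrophage markers summed to 9.12 and 12.3. A cluster of 52 cells with mixed macrophage and germ cell genes stayed unnamed. It held the highest level of Atf3, 128.9 CPM (79.8 to 197), and of Ier3, 178 (119 to 256), and leaving it out together with the 46 cells led by nuclear RNAs moved none of the summed ratios beyond its interval. The 52 cells belong to no class, so leaving them out could change the ratios between days only. Atf3 on day 14 against day 4 was not recomputed without them.

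On day 14 the members were higher in differentiating Leydig-like than in Leydig-like cells. The 509 differentiating Leydig-like cells held 759 CPM of the 10 genes (720 to 800), and the 446 Leydig-like cells held 339 (319 to 359), a ratio of 0.446 for Leydig-like over differentiating Leydig-like cells (0.412 to 0.482). Fos was 146 CPM in the differentiating Leydig-like cells (129 to 164) and 52.0 in the Leydig-like cells (44.6 to 60.3). Egr1 was 234 (213 to 257) and 97.4 (87.1 to 109), and Fosb was 44.0 (35.0 to 54.6) and 12.3 (8.79 to 16.6).

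The same order held for Ier2, Junb, Jun and Ier3. Ier2 stood at 156.7 and 66.0 CPM, with a ratio of 0.421 (0.352 to 0.504), Junb at 46.7 and 21.8, with a ratio of 0.467 (0.337 to 0.645), and Jun at 60.6 and 37.05, with a ratio of 0.611 (0.470 to 0.795). Ier3 stood at 29.0 and 14.6, with a ratio of 0.505 (0.336 to 0.758). Jund was the exception among the well-counted members, at 41.9 and 36.2, with a ratio of 0.864 whose interval (0.644 to 1.16) spans 1. Fosl2, outside the members, was likewise level between the classes, at 93.4 and 100.4, with a ratio of 1.07.

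Of the 8 members with at least 50 UMIs over both classes, 5 were past 2-fold lower in Leydig-like cells (Fos, Fosb, Egr1, Ier2 and Junb) and 0 higher, where 8.46% of 8014 genes were past 2-fold (3.74% higher and 4.72% lower). The members' median log2 ratio was -1.15, beside -0.043 for all genes. The differentiating Leydig-like class had shallower cells, with a median of 2189.5 UMIs in the cluster that makes up most of it and 5000 in the Leydig-like cluster. With each class cut into 3 groups of equal size by depth, from the shallowest to the deepest, the summed level was 701, 697 and 787 CPM in differentiating Leydig-like cells and 366, 395 and 314 in Leydig-like cells, so each group of the first class lay above each group of the second. When each cell was given a class by itself rather than by its cluster, the summed log2 ratio was -0.89 and no longer past 2-fold. Egr1 and Ier2 then came within 2-fold too, at -0.99 and -0.93, and Junb did so at -0.69 with equal weight per cell, at -0.83 with a pseudocount of 10 CPM and at -0.92 without the 6% of cells with the highest doublet score.

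On day 4 the differentiating Leydig-like cells were the class with the lowest summed level, and on day 7 the classes overlapped. The day 4 level was 518 CPM in proliferating progenitor-like cells (492 to 545), 587 in differentiating myofibroblast-like cells (572 to 603) and 342 in the 85 differentiating Leydig-like cells (274 to 422). On day 7 it lay between 490 and 516 in the 4 classes. Of 9 members with enough UMIs, 0 were past 2-fold between proliferating progenitor-like and differentiating myofibroblast-like cells on day 4, where 6.37% of 9951 genes were (5.09% higher and 1.28% lower). The name of the differentiating Leydig-like class is less firm on days 4 and 7. Its markers summed to 6265 CPM in those 85 cells, compared with 1167 and 1505 in these 2 classes. Interstitial progenitor markers summed to 4799 CPM, compared with 1369 and 1568, and Leydig markers to 377. With 30 principal components the class held 10 cells of day 4. On day 7 its markers summed to 7477 CPM, compared with 1672 in ECM myofibroblast-like cells. Interstitial progenitor markers summed to 2511 and 685 there, and Leydig markers to 430 and 442. The cluster with 227 of its 294 cells on day 7 had 0 of the class's markers among its 10 leading genes. With 30 principal components a cluster led by Eln and Entpd2, with 278 cells of day 7, stayed unnamed.

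Fosl1 divided the classes before day 14. On day 7 it was 34.8 CPM in proliferating progenitor-like cells (28.0 to 42.6), 26.6 in ECM myofibroblast-like cells (23.0 to 30.6) and 5.99 in differentiating Leydig-like cells (2.41 to 12.3). The last was 0.225 of the level in ECM myofibroblast-like cells (0.0894 to 0.473). The 77 differentiating myofibroblast-like cells of day 7 held 1 UMI, or 3.88 CPM (0.0982 to 21.6). On day 4, 0 UMIs were seen in the 85 differentiating Leydig-like cells, which allows up to 14.3 CPM, compared with 19.8 (17.0 to 22.8) in differentiating myofibroblast-like and 24.0 (18.6 to 30.4) in proliferating progenitor-like cells. Within the differentiating myofibroblast-like class Fosl1 was also uneven, at 38.2 CPM over all days in the cluster led by Ankrd1 and Fst (31.9 to 45.3) and at 9.02 and 9.18 in the other two.

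Between differentiating Leydig-like and ECM myofibroblast-like cells of day 7, 3 of 9 members were past 2-fold, where 9.81% of 9325 genes were (4.43% higher and 5.38% lower). Fosl1 and Fosb were lower and Ier3 higher. Fosb had 0 UMIs in the 294 differentiating Leydig-like cells and 64 in the ECM myofibroblast-like cells, at least 3.36-fold lower against a floor of 3 UMIs in the group. Ier3 was 47.9 CPM (36.2 to 62.2) and 22.5 (19.2 to 26.2). Jun was lower in the differentiating Leydig-like cells, at 80.4 (65.0 to 98.4) and 137.6 (129.3 to 146.3), and Egr1 was higher, at 128.3 (108.6 to 150.6) and 83.2 (76.8 to 90.1). These directions depend on the clustering. With 30 principal components the class held 36 cells on day 7, of which 18 were among the 294, and the summed log2 ratio was -1.40 in place of -0.036. The log2 ratio of Egr1 was then -3.31 in place of 0.62, that of Fos -3.81 in place of 0.22 and that of Ier3 -0.53 in place of 1.06. Ier3 also came within 2-fold, at log2 ratios of 0.80 to 0.99, under 6 other settings.

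Within differentiating Leydig-like cells, Fos went from 27.2 CPM on day 4 (7 UMIs, 10.9 to 56.1) and 15.4 on day 7 (18 UMIs, 9.13 to 24.3) to 146 on day 14 (129 to 164). Day 14 was 9.48-fold above day 7 (5.89 to 16.2), and Fosb, with 0 UMIs on day 7 and 82 on day 14, was at least 17.1-fold higher. Egr1 was 1.82-fold higher (1.51 to 2.21) and Jun was 0.754 of its day 7 level (0.569 to 1.002). Of 8 members with enough UMIs, 2 were past 2-fold higher and 0 lower, where 7.64% of 6620 genes were past it (3.43% higher and 4.21% lower).

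The class does not hold the same cells on these days, since 227 of its 294 cells on day 7 belonged to a cluster led by Eln, Mfap4 and Fmod and 504 of its 509 cells on day 14 to a cluster led by Slc38a5, Selenbp1 and Gpx3. Within the second cluster alone, Fos was 27.7 CPM in 83 cells of day 4 (11.1 to 57.0), 5.98 in 67 cells of day 7 (1 UMI, 0.151 to 33.3) and 143 in 504 cells of day 14 (126 to 161). Fosl1 was at 0 in this cluster on every day, among 33, 18 and 506 UMIs of the Fos family. This allows it up to 10.6%, 18.5% and 0.726% of the family's UMIs. Egr1 was 122.6, 29.9 and 236.9, and the summed level was 344 (276 to 424), 245 (176 to 333) and 746 (707 to 787). Between days 7 and 14 of this cluster, 4 of 8 members with enough UMIs were past 2-fold higher (Fos, Fosb, Egr1 and Ier2) and 0 lower, where 11.6% of 5215 genes were past it (7.69% higher and 3.91% lower). Under the finer resolution of 1.2, this cluster did not hold the same state on each day. The cluster led by Slc38a5 then held 3, 30 and 503 cells of days 4, 7 and 14. A cluster named interstitial progenitor, led by Hpgd, Ogn and Chrdl1, held 81, 33 and 5. Levels of the members in these clusters were not computed.

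Ier3 was lower on day 7 than on day 4 within classes too. It went from 62.8 CPM (53.9 to 72.8) to 21.7 (16.5 to 28.0) in proliferating progenitor-like cells and from 83.1 (77.3 to 89.1) to 27.2 (10.9 to 56.0) in differentiating myofibroblast-like cells, but was 46.7 (24.1 to 81.5) and 47.9 (36.2 to 62.2) in differentiating Leydig-like cells. Jun was higher on day 7 in proliferating progenitor-like cells, at 90.7 (80.0 to 103) and 122.9 (110.0 to 137.0). The difference between classes was not tested.

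**Figure D3:**
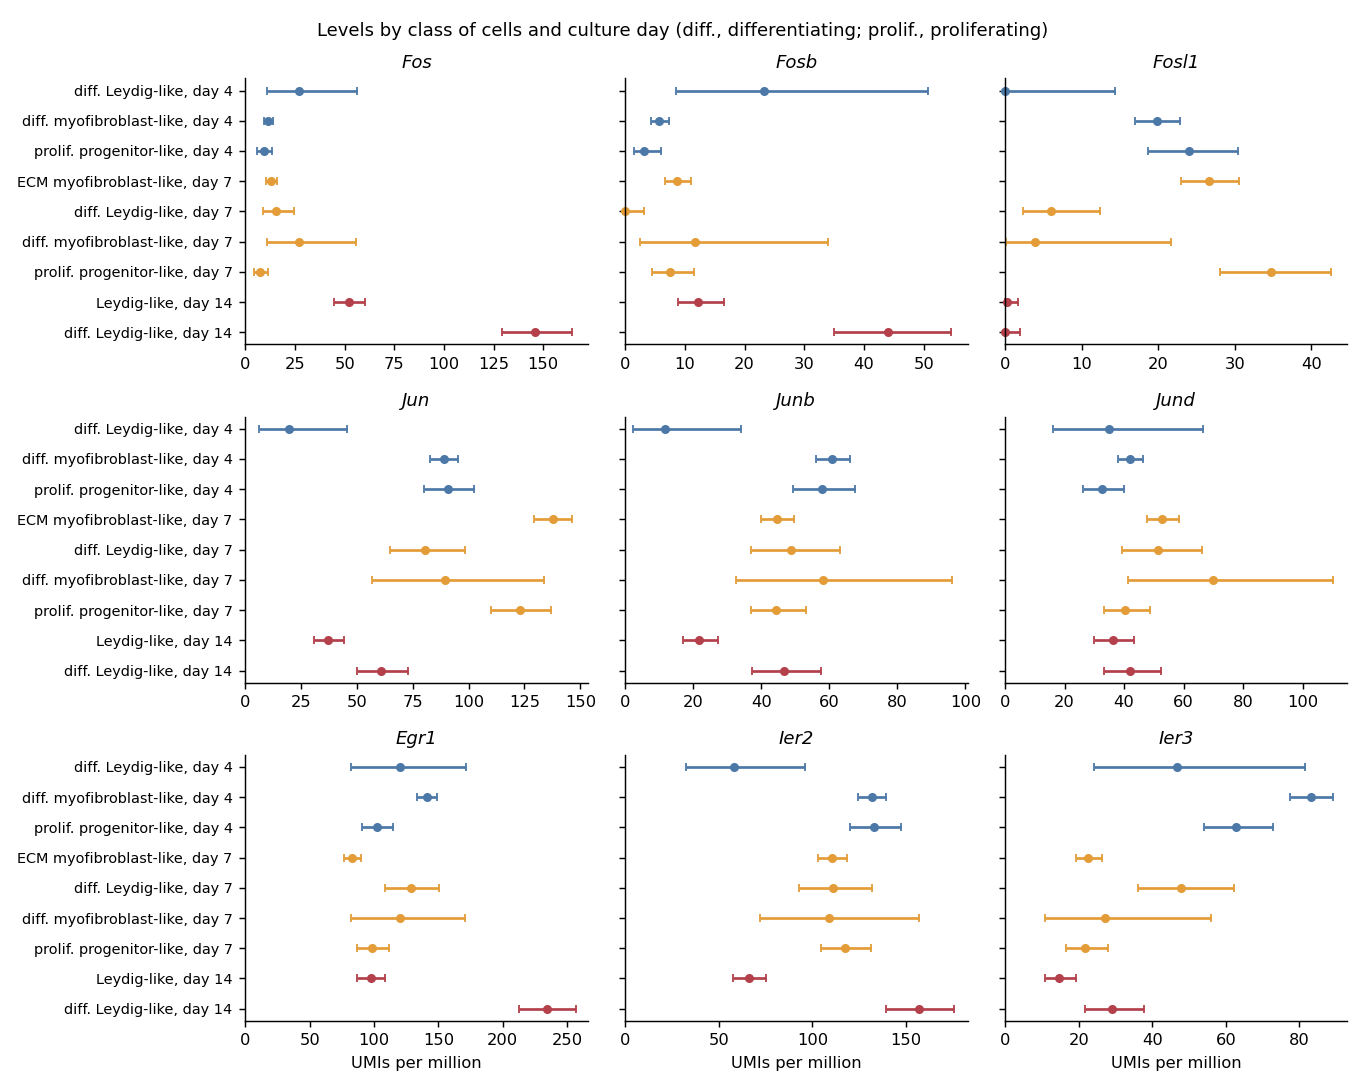
Levels of 9 members (Atf3 is left out as sparse) in each class on each day with at least 50 cells, in CPM with exact Poisson 95% intervals; each panel has its own axis. Fos, Fosb, Egr1 and Ier2 are highest in differentiating Leydig-like cells of day 14, and Fosl1 is at 5.99 or less in the Leydig-like and differentiating Leydig-like classes.

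Cells with a Fos UMI on day 14 also held more of several other members. Among the thinned cells, 71 had a Fos UMI and 723 had none. Fosb was 254 CPM in the first and 10.1 in the second, a ratio of 25.0 (12.0 to 55.8), and Egr1 was 751 and 117, a ratio of 6.41 (4.79 to 8.55). Ier2 was 329 and 76.5, a ratio of 4.29 (2.81 to 6.45). Junb and Jun were higher as well, with ratios of 5.60 (2.42 to 12.3) and 3.15 (1.55 to 5.99), whereas the intervals for Jund (0.737 to 3.88), Ier3 (0.965 to 9.82) and Fosl2 (0.752 to 2.51) spanned 1.

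For Fosb, Egr1 and Ier2 this was seen inside both day 14 classes. In differentiating Leydig-like cells, 50 with and 305 without a Fos UMI, the ratio was 25.6 for Fosb (9.40 to 87.0), 4.25 for Egr1 (2.94 to 6.12) and 2.61 for Ier2 (1.55 to 4.29). In Leydig-like cells, 21 with and 403 without, it was 19.2 for Fosb (5.13 to 71.8), 10.8 for Egr1 (6.48 to 17.7) and 8.12 for Ier2 (3.62 to 17.0). Junb and Jun were above 1 in Leydig-like cells, at 23.0 (5.86 to 95.4) and 5.33 (1.55 to 14.9). In differentiating Leydig-like cells their intervals spanned 1, at 2.18 (0.614 to 6.40) and 2.12 (0.821 to 4.91). Some of these genes also had ratios above 1 on the earlier days. On day 4, over 35 and 2192 cells, the ratio was 26.1 for Fosb (7.20 to 79.6), from 5 and 12 UMIs, and 2.73 for Egr1 (1.60 to 4.37). The day 4 intervals of Ier2 (0.849 to 3.10), Junb (0.500 to 3.70) and Jun (0.358 to 2.62) spanned 1. On day 7, over 33 and 1709 cells, the ratio was 3.09 for Egr1 (1.62 to 5.39) and 2.89 for Ier2 (1.63 to 4.77), and 5.75 for Fosb (0.648 to 24.0), from 2 and 18 UMIs. For Jun it was 2.19 (1.15 to 3.81) and for Junb 2.55 (0.917 to 5.71). The difference between days was not tested.

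**Figure D4:**
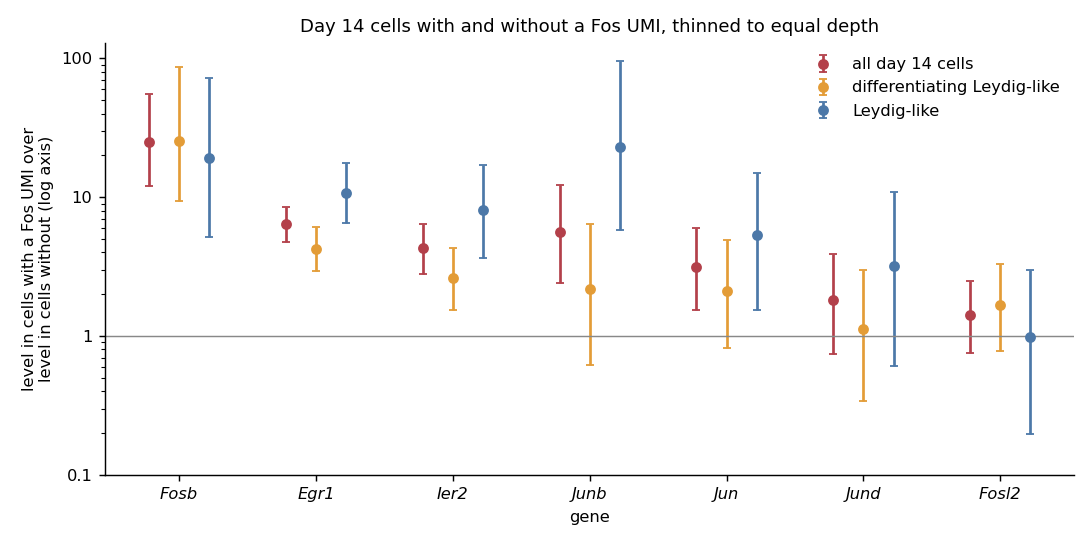
Ratio of each gene's level in day 14 cells with a Fos UMI to that in cells without, all thinned to 1500 UMIs, on a log axis with exact 95% intervals, for all cells and for each class. Fosb, Egr1 and Ier2 lie above 1 in all 3 sets, and Fosl2 spans 1.

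A split by a Fosl1 UMI could be made on days 4 and 7 only, and most of its intervals spanned 1. On day 4, 67 thinned cells had a Fosl1 UMI and 2160 had none, and the ratio was 0.610 for Egr1 (0.262 to 1.21) and 0.924 for Jun (0.395 to 1.85). On day 7, with 60 and 1682 cells, it was 1.01 for Egr1 (0.429 to 2.02) and 1.98 for Ier2 (1.19 to 3.12). The low counts limit these ratios.

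The correlation of members across thinned cells followed the same lines. On day 14, over 794 cells, the correlation of a member with the summed others was 0.43 for Fos, 0.38 for Egr1, 0.35 for Fosb, 0.33 for Ier2 and 0.21 for Junb. On days 4 and 7 the highest was 0.12, over 2227 and 1742 cells. For pairs of members the highest on day 14 was 0.49, for Fos and Fosb, and the median over 28 pairs was 0.083. All cells of a day share a library, and in counts this sparse a weak correlation carries no finding.

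Outside the members, 2529 genes with at least 50 CPM on each day were compared. Those with the highest mean correlation with the summed members over the 3 days were Cyr61, Errfi1, Ctgf, Col15a1, Gsn, Dcn, Actb and Fth1. The cells of all classes of a day were pooled, and for these genes no correlation within a class was computed. The mean was 0.13 for Cyr61, with 0.11, 0.045 and 0.25 on days 4, 7 and 14, and 0.12 for Errfi1, with 0.045, 0.036 and 0.27. Outside all gene lists used, and counting Dcn, a marker of interstitial progenitors, among them, Lgals1 and Tpm1 came next, at 0.063 and 0.062.

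The other genes of the response were read from lists, with at least 50 UMIs over both days needed for a gene to count. Of 24 other immediate-early genes, 2 were past 2-fold higher on day 14 than on day 7 and 12 lower, where 9.15% and 14.4% of all genes were, with a median log2 ratio of -0.96. The days differ in their classes of cells. Within the differentiating Leydig-like class 3 of 17 were higher and 1 lower, where 3.43% and 4.21% of all genes were, with a median of 0.13. Within the cluster led by Slc38a5, 4 of 13 were higher and 2 lower, with a median of 0.43. There 7.69% of all genes were past 2-fold higher and 3.91% lower. This cluster held 67 cells of day 7, but 30 at the finer resolution of 1.2, so its day 7 cells were mixed in state. Gadd45b, a stress-response gene, went from 56.5 to 4.88 CPM, Cyr61 and Klf6 from 447 to 96.5 and from 143.1 to 30.8, and Ctgf from 1489 to 411.5. The 2 higher ones were Errfi1, a feedback inhibitor of the EGF receptor, from 88.3 to 191.9, and Dusp1, a phosphatase of MAP kinases, from 18.0 to 37.2. Egr2, the relative of Egr1, went from 38.8 to 12.2 while Egr1 itself went from 91.6 to 143.9.

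Of genes known as AP-1-regulated, most were lower on day 14. Of 12 with enough UMIs, 10 were past 2-fold lower than on day 7 and 0 higher, where 14.4% and 9.15% of all genes were. The median log2 ratio was -2.35, which was also the median with Il6, at 0 UMIs on day 14, set to the floor of 3 UMIs. Hbegf, an EGF receptor ligand, went from 211.6 to 6.76 CPM, and Cd44, the hyaluronan receptor, from 237.6 to 13.9. Il6 went from 13.4 to 0, at least 23.8-fold lower. Plau stood apart, at 15.5 and 29.5. In the differentiating Leydig-like class, 5 of 9 were past 2-fold lower on day 14 than on day 7 and 0 higher, where 4.21% and 3.43% of all genes were, with a median log2 ratio of -1.30. Within the single cluster led by Slc38a5 the counts went the other way, with 2 higher and 1 lower of 7 and a median of 0.31, over 67 cells of day 7. There 7.69% of all genes were past 2-fold higher and 3.91% lower. At the finer resolution of 1.2 that cluster held 30 cells of day 7, so its day 7 cells were mixed in state.

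Other AP-1 genes split. Of 9, 2 were past 2-fold higher on day 14 than on day 7 (among them Fosl2) and 2 lower (Maff and Jdp2). Over all genes 9.15% were higher and 14.4% lower. The median log2 ratio of the 9 was 0.036. Maff went from 43.0 to 15.6 CPM and Jdp2, a repressor that competes for AP-1 sites, from 42.6 to 18.6.

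Genes of the upstream MAP kinase pathway lay nearest to the bulk of genes, with 0 of 15 past 2-fold higher and 1 lower (Elk3, from 37.8 to 13.0), and a median log2 ratio of -0.16, that of all genes. Of 10 heat shock genes 0 were past 2-fold higher and 1 lower (Hspb1, from 158.2 to 75.9). Of 8 genes of the Atf4 stress response 4 were lower, among them Asns, from 143.6 to 20.8, and 0 higher. Over all genes 9.15% were past 2-fold higher and 14.4% lower.

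**Figure D5:**
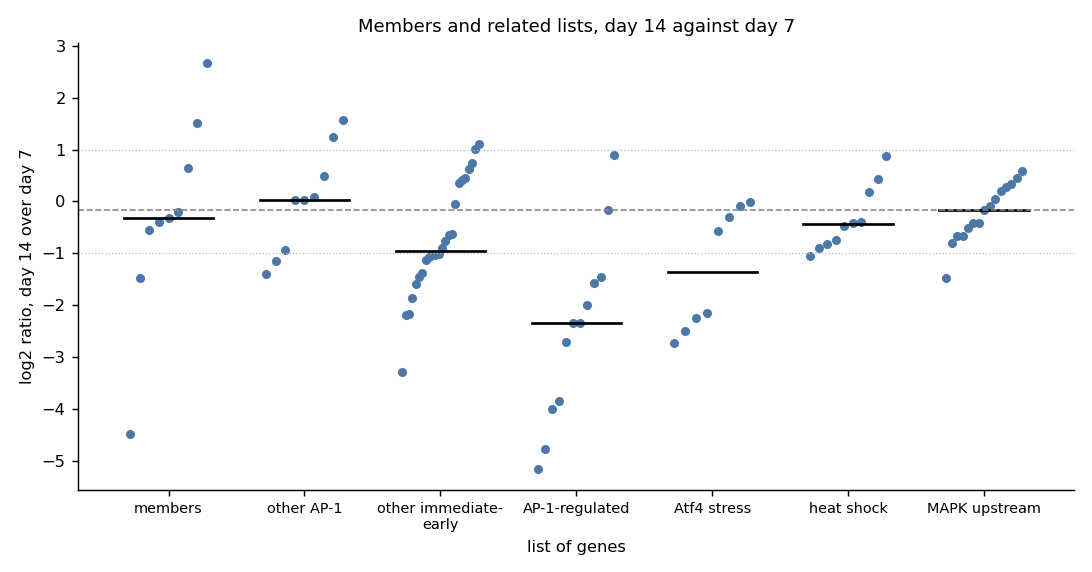
Log2 ratio of day 14 to day 7 (pseudocount 1 CPM) for each gene with at least 50 UMIs, by list; bars are medians, dotted lines mark 2-fold and the dashed line the median of all genes (-0.16). The AP-1-regulated list has its median at -2.35, while the members run from -4.49 for Fosl1 to 2.67 for Fos.

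Between days 4 and 7 the same lists held few genes past 2-fold, where 2.15% of all genes were higher and 2.48% lower. There were 0 higher and 4 lower of the 24 other immediate-early genes (Dusp1, Errfi1, Cyr61 and Csrnp1), with a median log2 ratio of -0.57 beside 0.089 for all genes, and 0 higher and 3 lower of 13 AP-1-regulated genes (among them Mmp3 and Plau). Dusp1 went from 52.1 to 18.0 CPM and Errfi1 from 231.3 to 88.3, so that both had their low point on day 7, as Egr1 had. Of the other lists, Maff among the other AP-1 genes was past 2-fold lower, at 112.6 and 43.0, and 0 of the heat shock, Atf4 and MAP kinase genes were past it.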

How the data were processed

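Drop-seq libraries of days 4, 7 and 14 (1 each) gave UMI counts per gene and cell. The counts were deposited raw, without normalization; the authors used Drop-seq tools and the STAR aligner on the GRCm38 genome. The submitters' processing notes name STAR 2.5.2a, Picard 2.6.0 and SAMtools 1.2, and the paper names another STAR version. The merged count table of 6124 cells was used; the tables per day hold 320, 229 and 327 further barcodes that the authors' cell filter left out. The methods set limits of 500 genes and 10% mitochondrial transcripts, and the kept cells had 501 genes or more and up to 9.93%. Another 495 columns of the merged table belong to no sample here and were not used. The merged entries were compared with the tables per day and 0 differed. The tables per day shared 52 to 57 barcodes between days and the kept cells 0.

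Cells were clustered with Seurat 5.3.0 (2000 variable genes, 20 principal components, resolution 0.8), without 95 members and related genes. Clusters were named from marker lists. Scrublet (scanpy 1.11.5) called 3 cells, which is too few to have worked, so no cell was removed as a doublet. Counts were summed per group and log2 ratios took a pseudocount of 1 CPM. Promoter windows were matched by symbol for 7 of 10 members. The members and lists were chosen with earlier results of these data known. Named genes were the 10 members, up to 4 genes per list furthest from 1-fold and, by correlation, 8 genes outside the members and 8 outside all lists. Other named list genes were chosen after their values were seen. The counting was checked on simulated data. Values of some listed genes are not reported here.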

Additional observations from a re-analysis of the deposited data

Results flagged for a closer look

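Junb had a log2 ratio of 1.97 for day 7 over day 4 in differentiating Leydig-like cells, from 3 and 57 UMIs, and was lower on day 7 in proliferating progenitor-like cells, so the classes lay on opposite sides. Fosb had a log2 ratio of 1.02 in proliferating progenitor-like cells, from 9 and 20 UMIs, while differentiating Leydig-like cells held 6 UMIs on day 4 and 0 on day 7, at least 9.09-fold lower. Neither difference between classes was tested, and the name of the differentiating Leydig-like class on days 4 and 7 depends on the clustering.

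Barcodes that the cell filter left out also held the members. Their summed level was 572 CPM in 320 barcodes of day 4, 476 in 229 of day 7 and 420 in 327 of day 14, beside 570, 498 and 482 in the kept cells. The median share of mitochondrial UMIs in the left-out barcodes was 1.09%, 2.55% and 3.44%, beside 1.19%, 1.37% and 2.30% in the kept cells.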

How the results depend on the processing

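No paired analysis was possible because each day is 1 library. The summed log2 ratio of day 7 to day 4 was -0.19 and became -0.28 with median-of-ratios scaling and -0.091 as the median of the members. That of day 14 to day 7 was -0.047 and became 0.10 with equal weight per cell, 0.093 in thinned cells, 0.066 with median-of-ratios scaling, -0.13 without the 1% of cells with the highest members' share and -0.36 as the median of the members, so its sign is not settled. Between proliferating progenitor-like cells of day 4 and those of the differentiating myofibroblast-like class it was -0.18 and became -0.30 with equal weight, -0.31 in thinned cells, -0.28 as the median, -0.30 with 30 principal components and -0.087 with a class for each cell. That of differentiating Leydig-like to ECM myofibroblast-like cells on day 7 was -0.036 and became -1.40 with 30 principal components (36 cells). That of Leydig-like to differentiating Leydig-like cells on day 14 was -1.16 and became -1.05 with equal weight, -1.002 as the median and -0.89 with a class for each cell. The causes were not tested. With at least 200 UMIs, 319 genes in place of 527 were past 2-fold between days 4 and 7 and 1696 in place of 2593 between days 7 and 14, since fewer genes entered.

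Of 590 values of single members under the alternatives, 545 stayed inside the interval of the reported ratio and the others lay outside it. In 38 the sign was opposite to that of the reported ratio, of which 10 lay outside its interval and 2 came from a ratio past 2-fold, both on day 7 between differentiating Leydig-like and ECM myofibroblast-like cells. The latter were Atf3, from -1.10 to 0.53 with equal weight per cell, and Ier3, from 1.06 to -0.53 with 30 principal components. Fosb on day 14 against day 7 came within 2-fold with a pseudocount of 10 CPM, at a log2 ratio of 0.92. Removing the 6% of cells of each day with the highest Scrublet score, an alternative chosen after seeing the data, left each summed ratio inside its interval. The depth limits Atf3 and Fosl1 on day 14 most.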
